A study of Homo sapiens with 9 samples.

Results

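The 10 genes described here encode factors that set epithelial identity in many tissues. They are the transcription factors ELF3, EHF, GRHL1, GRHL2, GRHL3, OVOL1, OVOL2 and KLF5, and the splicing regulators ESRP1 and ESRP2. They were chosen by name, as the rows carrying these symbols among 27111 genes, and their levels were compared across multicellular tumor spheroids (MTSs) of PC3, a human prostate cancer cell line derived from a bone metastasis. Cells of all 3 lines carried a lentiviral pSIN vector and were selected with puromycin. The Empty line carried the vector alone, and the other lines expressed the murine long (NF-YAl) or short (NF-YAs) splice form of NF-YA, the subunit through which the NF-Y trimer binds CCAAT boxes. Each line is a transduced population and each library came from pooled MTSs. A single line carried each form, so an effect of a form cannot be told apart from a difference between lines. The 9 libraries were lettered A, B and C for the Empty and the NF-YAs line but A, B and D for the NF-YAl line, 3 for each.

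ELF3 and EHF are ETS factors of the epithelial-specific branch, which switch on genes of differentiated glandular and barrier epithelia. Grainyhead-like factors (GRHL1, GRHL2, GRHL3) and the zinc finger OVOL repressors hold the epithelial state by driving junction genes and by holding down ZEB and SNAI factors, which repress the same junction genes during epithelial to mesenchymal transition (EMT). KLF5 is a zinc finger factor of proliferating basal and luminal epithelium. ESRP1 and ESRP2 bind RNA and promote epithelial exons in genes such as FGFR2, CD44, CTNND1 and ENAH.

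Promoter windows from RefSeq, each holding 250 bases before and 50 after a transcription start, were examined for 5 of the 10 members. ESRP2, OVOL1 and OVOL2 had no window in the source, and GRHL2 and ESRP1 were left out of the search. The counts that follow cover the 5 examined members only. CCAAT, the box NF-Y binds, or its reverse complement ATTGG stood in 6 of the 8 windows of these members, against 34.6% of all 35116 windows of the same length. Each of the 5 members had it in at least 1 window, against 39.7% of all genes in the table. The letters are shown for the 4 of these members that were abundant enough to test. ELF3 and EHF passed the limits on adjusted p and fold change given below, KLF5 passed only the limit on adjusted p, and GRHL1 passed neither. Coordinates are GRCh37, all on the plus strand, and capitals mark CCAAT or ATTGG. The ELF3 window and the second EHF window overlap exons of longer annotated transcripts of the same genes, so only 30 bases round the box are given for them, ELF3 at chr1:201979629-201979658 and the second EHF start at chr11:34654029-34654058. The others are the 250 bases before the start, EHF (first start) at chr11:34645554-34645803, KLF5 (second start) at chr13:73632893-73633142 and GRHL1 at chr2:10091572-10091821.
ELF3: aaatcccctccatCCAATgagacaccagct
EHF, second start: gccctgagtggagATTGGttttggctcagg
EHF, first start: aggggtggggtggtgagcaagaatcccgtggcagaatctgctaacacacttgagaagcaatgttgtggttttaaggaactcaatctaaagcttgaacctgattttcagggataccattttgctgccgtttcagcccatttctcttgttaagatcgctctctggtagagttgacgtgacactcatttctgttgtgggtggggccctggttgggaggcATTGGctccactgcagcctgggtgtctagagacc
KLF5, second start: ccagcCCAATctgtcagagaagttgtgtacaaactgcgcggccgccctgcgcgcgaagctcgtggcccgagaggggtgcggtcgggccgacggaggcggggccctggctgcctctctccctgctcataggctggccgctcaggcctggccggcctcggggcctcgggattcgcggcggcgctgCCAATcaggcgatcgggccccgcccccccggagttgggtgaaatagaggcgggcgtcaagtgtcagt
GRHL1: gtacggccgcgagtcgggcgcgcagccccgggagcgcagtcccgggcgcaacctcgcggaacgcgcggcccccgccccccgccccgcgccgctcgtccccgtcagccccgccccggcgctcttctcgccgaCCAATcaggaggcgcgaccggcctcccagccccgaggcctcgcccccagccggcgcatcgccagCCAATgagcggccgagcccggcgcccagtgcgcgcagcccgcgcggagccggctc
The first base of the box lay 73 bases before the start of ELF3, and 34 and 71 bases before the starts of EHF. KLF5 had boxes at 245 and 67 bases before its second start and none at its first, and GRHL1 had boxes at 119 and 55 bases. Having 2 or more boxes in the 250 bases was seen in 9.53% of all windows. CAGGTG or CACCTG, the E-box read by ZEB and SNAI factors, was searched on both strands as well. It stood in 2 of the 8 windows, those of ELF3 and of the first GRHL3 start, against 20.6% of all windows. These matches describe the letters in the windows only.

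Each library summed to between 18076979 and 27163976 expected counts, and 17108 genes were abundant enough to test. NFYA, which counts reads of the endogenous gene and any murine reads that align to it, averaged 91.8 CPM (read counts scaled by library size and TMM) in Empty MTSs, and NF-YAl and NF-YAs averaged 341 and 261, with no overlap between lines. Of the epithelial markers KRT8, KRT18, KRT19, EPCAM and CDH1, all were counted in every line, with summed levels of 1171 to 1294 CPM for the Empty line, 744 to 759 for NF-YAl and 729 to 833 for NF-YAs. The 3 keratins carried most of each sum and were lower in both NF-YA lines. EPCAM went the other way, with means of 0.982, 4.42 and 2.71 CPM in Empty, NF-YAl and NF-YAs. CDH1 averaged 6.58, 7.45 and 2.62 CPM in the same order. Among prostate luminal markers KLK3 had 0 counts in all 9 libraries. Summed levels of basal markers were 3.02 to 4.09 CPM for Empty, 7.76 to 8.75 for NF-YAl and 3.88 to 6.57 for NF-YAs. TP63 carried most of these sums, with means of 3.32, 7.57 and 5.27 CPM, while KRT14 averaged at most 0.638 CPM and KRT5 at most 0.041. Summed levels of endothelial markers were 12.6 to 14.2 CPM for Empty, 6.13 to 7.06 for NF-YAl and 7.81 to 8.66 for NF-YAs. Of the endothelial markers, VWF was called 9.41-fold lower for NF-YAl relative to Empty (log2FC -3.24, SE 0.229, adjusted p = 1.92e-06), and PECAM1 3.32-fold lower for NF-YAs (-1.73, SE 0.201, adjusted p = 4.80e-05), while CDH5 averaged at most 0.307 CPM. Fibroblast and leukocyte markers summed to at most 1.29 and 1.19 CPM in any library. The part of these markers in the results below was not tested. Ribosomal, 7SL and 7SK RNA took 3.82% of the counts of NF-YAl library D, against 6.95 to 11.3% in the others. The deposited TPM of library D (the share of transcripts that RSEM gives a gene) were also high, and a link between these was not tested. The median log2 ratio of mean TPM over all tested genes was 0.34 for NF-YAl and 0.16 for NF-YAs relative to Empty, and 0.18 between the 2 forms, whereas on the CPM scale these medians were 0.01, -0.00 and 0.02. Groups were therefore compared on the TMM scale, and genes with each other by TMM-scaled CPM per kb of effective length.

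The members fell into abundant and barely detected genes. In Empty MTSs KLF5 led with 20.1 ± 1.10 CPM per kb (SD, n = 3), followed by ELF3 with 15.2 ± 3.98, EHF with 9.46 ± 1.16, ESRP2 with 8.52 ± 0.422 and GRHL1 with 2.16 ± 0.319. The libraries of ELF3 overlapped those of EHF, and those of EHF overlapped those of ESRP2, while KLF5 and GRHL1 stood apart from their neighbours. The other 5 members lay at or below 0.113 CPM per kb on average. In NF-YAl MTSs the order was KLF5 (17.2), ESRP2 (9.31), EHF (7.22), ELF3 (3.40) and GRHL1 (2.24), and in NF-YAs it was KLF5 (10.7), ESRP2 (5.35), GRHL1 (1.51), EHF (1.10) and ELF3 (0.619 CPM per kb). In that last order GRHL1, EHF and ELF3 did not separate from the neighbour next to them. In the NF-YAl order the libraries of ESRP2 overlapped those of EHF, and those of ELF3 overlapped those of GRHL1. KLF5 was thus first in all 3 lines, and ELF3 moved from rank 2 in Empty to rank 4 in NF-YAl and rank 5 in NF-YAs. MTSs are bulk samples, so fewer cells with a transcript and less of it per cell cannot be told apart. ELF3, EHF, GRHL1, KLF5, ESRP1 and ESRP2 passed the filter on low counts and were tested, and GRHL2, GRHL3, OVOL1 and OVOL2 did not pass.

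**Figure D1:**
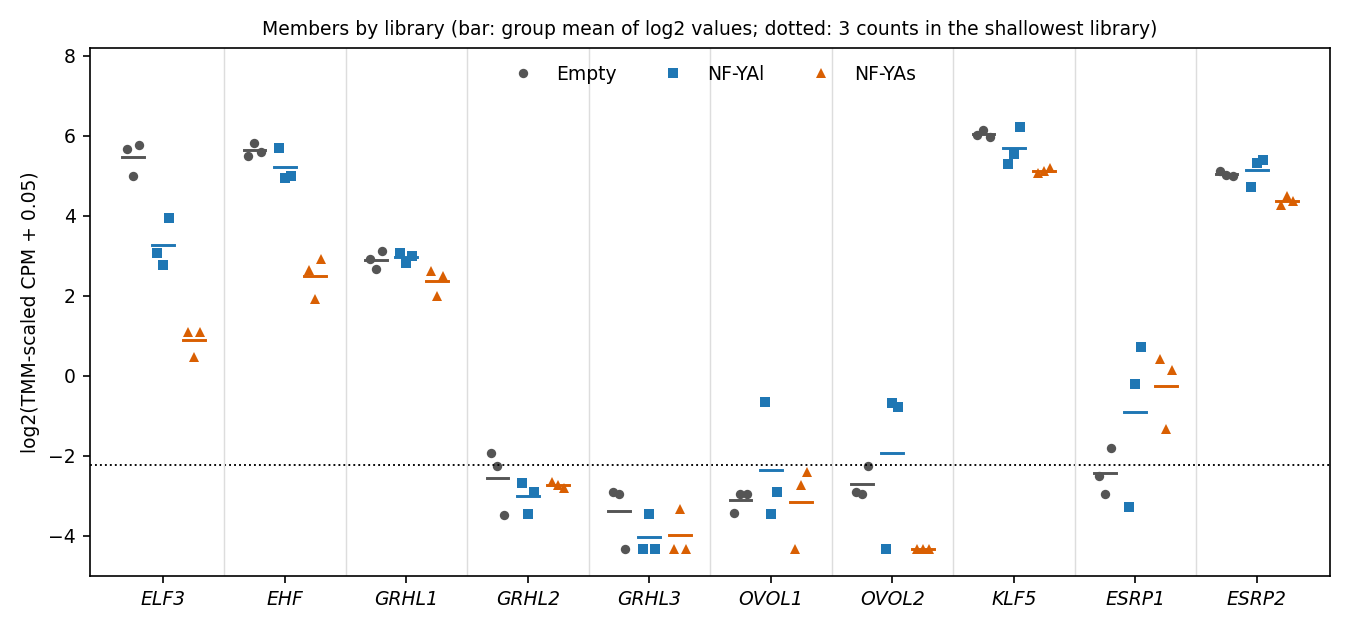
The x axis lists the 10 members and the y axis gives log2(TMM-scaled CPM + 0.05) in each of the 9 libraries, with a bar at each group's mean and a dotted line at 3 counts in the shallowest library. ELF3 falls from Empty to NF-YAl to NF-YAs without overlap, EHF stands apart only in NF-YAs, and GRHL2, GRHL3, OVOL1 and OVOL2 lie near or below the dotted line apart from NF-YAl libraries of OVOL1 and OVOL2.

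A gene was called when its adjusted p was under 0.01 and its |log2FC| above 1 in an edgeR fit of all 9 libraries. In NF-YAl against Empty 1 member was called, ELF3, which was lower, and 0 were higher, where 3.5% of all tested genes were lower and 4.76% higher. In NF-YAs against Empty 2 members, ELF3 and EHF, were lower and 0 were higher, where 3.9% of tested genes were lower and 5.44% higher. NF-YAl against NF-YAs had the same 2 members higher and 0 lower, with 1.74% of tested genes higher and 2.86% lower. At an adjusted p under 0.01 with no fold limit the first comparison was unchanged (10% of genes higher and 9.54% lower). In NF-YAs against Empty KLF5 and ESRP2 were then also lower, giving 4 members (10.5% of genes, and 12.1% higher). In NF-YAl against NF-YAs ESRP2 was added, giving 3 higher (4.7% of genes, and 6.25% lower). Both comparisons with Empty share the same 3 control libraries.

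ELF3 had the largest log2FC of the tested members in NF-YAs against Empty. It is on the plus strand of chromosome 1 (201977073 to 201986311) and overlaps ELF3-AS1 on the opposite strand. Empty libraries A, B and C held 1202, 804 and 1383 expected counts, or 50.4, 31.9 and 54.4 CPM. The NF-YAl libraries A, B and D held 157, 165 and 376 counts (8.33, 6.75 and 15.4 CPM). Only 39, 27 and 45 counts (2.10, 1.34 and 2.07 CPM) were left in NF-YAs A, B and C. The 3 lines did not overlap, and library D was the highest of NF-YAl. The NF-YAl line was 4.47-fold lower than Empty (log2FC -2.16, SE 0.285, adjusted p = 0.000142). The NF-YAs line was 24.7-fold lower (log2FC -4.63, SE 0.342, adjusted p = 2.26e-06). Compared directly, NF-YAl stood 5.54-fold above NF-YAs (log2FC 2.47, SE 0.343, adjusted p = 0.000477).

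EHF, on the plus strand of chromosome 11 (34642640 to 34684835) with no annotated overlap, separated the 2 NF-YA lines. Empty A, B and C carried 45.0, 56.8 and 48.2 CPM, from 1074, 1430 and 1225 expected counts. NF-YAl A carried 52.0 CPM, inside the Empty range, and libraries B and D carried 30.9 and 31.6. In NF-YAs A, B and C the level was 6.19, 3.73 and 7.47 CPM, from 115, 75 and 162 counts, below every library of the other lines. EHF fell 8.61-fold in NF-YAs (log2FC -3.11, SE 0.254, adjusted p = 4.43e-06). Against Empty the NF-YAl value was -0.39 (SE 0.223, adjusted p = 0.203), which did not pass. The direct comparison put NF-YAl 6.55-fold above NF-YAs (log2FC 2.71, SE 0.253, adjusted p = 3.74e-05). Calls for ELF3 and EHF held in all 9 fits that left out 1 library, with ELF3 ranging from -2.60 to -1.93 in NF-YAl and from -4.83 to -4.44 in NF-YAs, and EHF from -3.34 to -2.87 in NF-YAs.

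KLF5 lies on the plus strand of chromosome 13 (73629114 to 73651679) with no annotated overlap. Its Empty libraries held 64.7, 70.1 and 62.4 CPM. The NF-YAs libraries were tight at 33.6, 34.4 and 36.7 CPM. NF-YAl A and B lay between, at 39.3 and 46.7 CPM, and D lay above all others at 75.0. KLF5 fell in NF-YAs without reaching the fold limit (log2FC -0.91, SE 0.187, adjusted p = 0.00248). Its adjusted p rose to at most 0.0135 in the 3 fits without Empty B, NF-YAs A or NF-YAs B and stayed under 0.01 in the other 6 fits without 1 library. In NF-YAl the log2FC was -0.29 (SE 0.184, adjusted p = 0.258), and leaving out library D made it -0.61 with an adjusted p of 0.000552. On the deposited TPM scale, where D is high throughout, the log2 ratio of NF-YAl to Empty was 0.24 for KLF5, below the median of 0.34 over all tested genes. NF-YAl against NF-YAs gave 0.62 (SE 0.187, adjusted p = 0.0315), and 0.80 with an adjusted p of 0.00276 without NF-YAl A.

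GRHL1, on the plus strand of chromosome 2 (10091822 to 10142405), was the only grainyhead-like member abundant enough to test. It carried 7.47, 6.36 and 8.58 CPM in Empty libraries and 8.28, 7.03 and 7.89 with NF-YAl. With NF-YAs it carried 6.09, 3.93 and 5.62 CPM. The NF-YAs libraries lay below the others, while Empty and NF-YAl overlapped. No comparison passed. The log2FC against Empty was 0.05 for NF-YAl (SE 0.186, adjusted p = 0.875) and -0.52 for NF-YAs (SE 0.190, adjusted p = 0.0511), and it was 0.57 between the forms (SE 0.191, adjusted p = 0.0496). The distant CP2-branch relatives of the family (TFCP2, TFCP2L1 and UBP1) had 0 of 3 called in any comparison, and UBP1 alone passed without the fold limit, higher in NF-YAs (log2FC 0.53, SE 0.110, adjusted p = 0.00275).

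**Figure D2:**
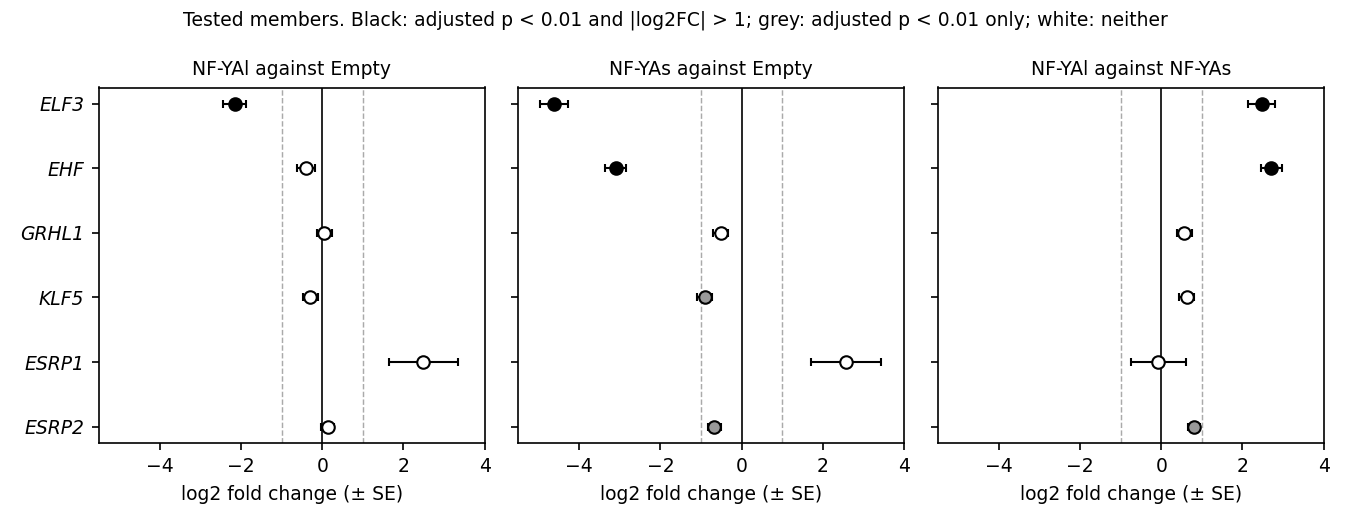
Each panel gives 1 comparison, with the log2 fold change of the 6 tested members on the x axis, bars for ± SE, dashed lines at 1 and -1, and fill for the call. ELF3 is filled black in all 3 panels, EHF in the panels that involve NF-YAs, and ESRP1 has the widest bars with no call.

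ESRP2, on the minus strand of chromosome 16 (68262936 to 68272005), was well expressed, with 34.7, 32.5 and 31.6 CPM in Empty and 19.1, 22.3 and 20.6 in NF-YAs. The NF-YAl libraries A, B and D had 26.5, 39.6 and 42.1 CPM, A below and B and D above the Empty range. ESRP2 fell in NF-YAs below the fold limit (log2FC -0.67, SE 0.154, adjusted p = 0.00476) and was higher in NF-YAl than in NF-YAs (0.81, SE 0.154, adjusted p = 0.00318). In fits without 1 library the adjusted p stayed under 0.01 in 3 of 9 for the first of these and in 5 of 9 for the second, and was lost without any Empty or NF-YAs library (first) and without NF-YAl B or any NF-YAs library (second), at most 0.0256. The NF-YAl value against Empty was 0.13 (SE 0.151, adjusted p = 0.547). ESRP2 overlaps NFATC3 on the opposite strand, and the expected counts of the 2 genes, each with decimals, summed to a whole number within 0.02 in 9 of 9 libraries. Part of the ESRP2 reads was therefore divided between them, and its level is uncertain to that extent. NFATC3 itself was lower in both lines, with a log2FC of -0.40 for NF-YAl (SE 0.0908, adjusted p = 0.00526) and -0.54 for NF-YAs (SE 0.0912, adjusted p = 0.000696).

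ESRP1, on the plus strand of chromosome 8 (95653302 to 95719694), was nearly silent in Empty, with 3, 2 and 6 counts. NF-YAl libraries held 1, 20 and 39 counts and NF-YAs libraries 24, 7 and 23. All NF-YAs libraries lay above Empty, whereas NF-YAl A lay below it and B and D above. The log2FC against Empty was 2.49 for NF-YAl (SE 0.854, adjusted p = 0.0425) and 2.56 for NF-YAs (SE 0.861, adjusted p = 0.0358), and neither passed. Without NF-YAl A, which enters the shared estimate of spread, both went past the thresholds, at 2.99 (SE 0.607, adjusted p = 0.00227) and 2.56 (SE 0.597, adjusted p = 0.00398). That fit left out the NF-YAl library with 1 count, and ESRP1 passed the filter on low counts through NF-YA libraries where it was high. The fit therefore cannot decide whether ESRP1 changed. The highest library, NF-YAl D, carried 0.455 CPM per kb, so that ESRP2 exceeded ESRP1 in every library.

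GRHL2, GRHL3, OVOL1 and OVOL2 were at or near the floor of 3 counts, which corresponded to between 0.118 and 0.162 CPM. GRHL2 (chromosome 8, 102504667 to 102681954) had 5, 4 and 1 counts in Empty libraries, then 2, 1 and 2 with NF-YAl, and 2 in each NF-YAs library. GRHL3 (chromosome 1, 24526048 to 24690972) never exceeded 2 counts. OVOL1 (chromosome 11, 65554534 to 65564685) had 1 to 2 counts in Empty, 0 to 3 in NF-YAs and 1 to 2 in NF-YAl B and D, with 11 in NF-YAl A. OVOL2 (minus strand of chromosome 20, 17937623 to 18039832) had 2, 2 and 4 counts in Empty, 0, 14 and 13 in NF-YAl A, B and D, and 0 in all NF-YAs libraries, which allows up to 3 counts in each. NF-YAl A, the library without OVOL2 counts, was also the NF-YAl library with 1 count of ESRP1 and the one with 11 of OVOL1. With no filter on low counts, 0 of these 4 genes passed in edgeR. At an unadjusted p under 0.05 there was 1 of the 4, OVOL2, with an adjusted p of 0.0150 in NF-YAl against NF-YAs and 0.117 in NF-YAs against Empty. OVOL2 passed the filter in 7 of the 9 fits without 1 library, through its counts in NF-YAl B and D. It went under the threshold only without NF-YAl A, higher in NF-YAl than in NF-YAs (edgeR adjusted p = 0.00140). That fit left out the NF-YAl library with 0 counts, and OVOL2 entered it through the group where it was high. The fit therefore cannot decide whether OVOL2 differed between the lines. No difference in GRHL2 or GRHL3 was detectable at this depth. All 4 genes overlap other annotated genes on the opposite strand, as GRHL1 does.

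Transcript shares, deposited as the percent of a gene's TPM, were compared for members and ESRP-regulated hosts with at least 10 expected counts, in 36 two-sided exact permutation tests. With 3 libraries against 3 the exact permutation test cannot go below p = 0.1, and 16 of the 36 reached it, with a Benjamini-Hochberg adjusted value of 0.225. Both transcripts of ELF3, KLF5 and ENAH were tested, and their shares mirror each other, so these comparisons entered the 36 in duplicate. Shares are thus described and none passed. The longer ELF3 transcript (3248 nt, against 3134 nt) took 11.1, 13.7 and 16.6% of the gene in Empty libraries, 16.5, 6.35 and 8.16% with NF-YAl, and 0% in every NF-YAs library. In NF-YAs, however, only 27 to 45 ELF3 reads were left to divide. The shorter KLF5 transcript (2952 nt, against 3566 nt) took 18.3, 19.4 and 29.2% in Empty libraries, 40.7, 31.0 and 63.1% with NF-YAl, and 35.5, 22.3 and 10.3% with NF-YAs, so that Empty and NF-YAl did not overlap. The main EHF transcripts differ by 1 base in length (5452 and 5451 nt), and the share of the 5452-nt form ranged from 0 to 52.0% among Empty libraries alone, so its mean of 71.0 ± 15.8% in NF-YAl (SD, n = 3) rests on an unstable split.

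Among the hosts of ESRP-regulated exons 0 of 4 genes were called in any comparison. CD44, the hyaluronan receptor, passed without the fold limit and was lower in both lines. Its log2FC against Empty was -0.84 for NF-YAl (SE 0.0899, adjusted p = 3.23e-05) and -0.58 for NF-YAs (SE 0.0896, adjusted p = 0.000370). Its 4589-nt transcript kept 88.2 to 92.6% of the gene in the 9 libraries. ENAH, an actin regulator, had gene-level values of 0.01 (SE 0.124) and -0.14 (SE 0.124) that did not pass. Its longer transcript, longer by 63 nt (13175 against 13112 nt), took 36.7, 35.0 and 29.8% of the gene in Empty libraries, 18.9, 26.6 and 33.7% with NF-YAl, and 22.6, 14.7 and 19.4% with NF-YAs. NF-YAs libraries lay below all Empty libraries, and NF-YAl overlapped both. FGFR2, a growth factor receptor, averaged 1.26 to 1.38 CPM in the 3 lines. Its 2781-nt transcript took 98.7, 83.4 and 100% of the gene in Empty libraries, 100, 96.9 and 100% with NF-YAl, and 64.0, 78.6 and 91.2% with NF-YAs. The 2 NF-YA lines did not overlap, but the shares rest on 10.1 to 48.7 expected counts of that transcript per library. CTNND1, p120 catenin, had gene-level values of -0.12 (SE 0.0941) and -0.15 (SE 0.0942). The 5764-nt CTNND1 transcript, the one with the highest share on average over the 9 libraries, took 30.2 ± 0.999% in Empty MTSs, 27.8 ± 3.98% with NF-YAl, and 25.5 ± 3.61% with NF-YAs (SD, n = 3). A 6172-nt CTNND1 transcript took 16.9, 23.3 and 17.8% in Empty libraries, 20.4, 20.4 and 23.0% with NF-YAl, and 36.2, 34.0 and 36.5% with NF-YAs, where it led in every library. It was chosen after its values were seen and was not among the 36 tests. Of 12 other splicing factors that act on such exons 0 were called in any comparison, with median log2FC of 0.10 (NF-YAl) and 0.15 (NF-YAs) relative to Empty and -0.00 between the forms, and only PTBP2 passed without the fold limit (0.73 in NF-YAl, SE 0.155, adjusted p = 0.00345).

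Junction and surface genes of epithelia, many of them known targets of these factors, did not follow a single direction. Of 23 such effector genes 18 were tested. In NF-YAl 4 were higher (EPCAM, SPINT1, CDS1 and TMEM30B) and 1 was lower (CLDN4), with a median log2FC of 0.18 against 0.01 for all tested genes. In NF-YAs 1 was higher (EPCAM) and 5 were lower (CDH1, CLDN4, CLDN7, LAD1 and MAL2), with a median of -0.38 against -0.00. In NF-YAl against NF-YAs 2 were higher (CDH1 and MAL2) and 0 lower, with a median of 0.64 against 0.02. EPCAM, CDS1, CLDN7 and LAD1 had a mean below 5 CPM in every line and were named after their values were seen.

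CDH1, which encodes E-cadherin, averaged 6.58 ± 0.618 CPM in Empty MTSs, 7.45 ± 1.65 with NF-YAl, and 2.62 ± 0.763 with NF-YAs (SD, n = 3). It fell in NF-YAs (log2FC -1.33, SE 0.235, adjusted p = 0.000931) and was higher in NF-YAl than in NF-YAs (1.5, SE 0.235, adjusted p = 0.000978). MAL2, a transcytosis protein of polarized epithelia, had 450 to 493 CPM in Empty MTSs, 275 to 408 with NF-YAl, and 78.4 to 122 with NF-YAs, and fell in NF-YAs (-2.22, SE 0.172, adjusted p = 2.95e-06). NF-YAs was thus the lowest line for ELF3, EHF, CDH1 and MAL2 alike. CLDN4, a tight junction claudin, fell in both lines, with a log2FC of -1.25 for NF-YAl (SE 0.175, adjusted p = 0.000227) and -1.02 for NF-YAs (SE 0.174, adjusted p = 0.000768). The second of these calls was lost without Empty C or NF-YAs A. SPINT1, a protease inhibitor of the epithelial surface, rose in NF-YAl (1.16, SE 0.10, adjusted p = 7.58e-06). TMEM30B rose in NF-YAl (1.33, SE 0.292, adjusted p = 0.00436), a call lost in 3 of the 9 fits without 1 library (Empty A, Empty C or NF-YAl B). Without Empty A or Empty C the effectors called in NF-YAl numbered 3 in place of 5, and without Empty C or NF-YAs A those called in NF-YAs numbered 3 in place of 6.

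Of 12 other transcription factors of epithelial lineages 11 were tested. In NF-YAl 1 was higher (TP63) and 1 was lower (ELF5), in NF-YAs 3 were lower (ELF5, SPDEF and KLF4) and 0 higher, and in NF-YAl against NF-YAs 1 was higher (FOXA1). Their median log2FC was -0.11, -0.38 and 0.52 in these comparisons. FOXA1, a pioneer factor of luminal prostate, had 86.7 to 92.3 CPM in Empty MTSs, 137 to 198 with NF-YAl, and 37.5 to 48.8 with NF-YAs, 3 ranges that did not overlap. NF-YAl stood above NF-YAs (1.84, SE 0.147, adjusted p = 1.57e-05), and against Empty both lines passed without the fold limit in opposite directions, at 0.85 (SE 0.143, adjusted p = 0.000784) and -0.997 (SE 0.145, adjusted p = 0.000241). SPDEF, an ETS factor of luminal prostate epithelium, fell in NF-YAs (-1.46, SE 0.174, adjusted p = 5.78e-05), with 48.8 to 55.1 CPM there and 132 to 161 in Empty. KLF4 fell in NF-YAs (-1.06, SE 0.187, adjusted p = 0.000909), a call lost without Empty C or NF-YAs B. TP63, the basal factor p63, rose in NF-YAl (1.19, SE 0.219, adjusted p = 0.00144). ELF5, another epithelial ETS factor, was named after its values were seen and had 24 to 47 counts in Empty and 0 to 2 in each other library.

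Among the 7 EMT repressors the NF-YA lines differed most at SNAI2, which encodes SLUG. Its level was 5.12 to 6.16 CPM in Empty MTSs, 2.97 to 6.49 with NF-YAl, and 18 to 23.1 with NF-YAs. SNAI2 rose in NF-YAs (1.82, SE 0.222, adjusted p = 6.96e-05) and was lower in NF-YAl than in NF-YAs (-2.06, SE 0.226, adjusted p = 9.32e-05). SNAI1, or SNAIL, went the other way and fell in NF-YAs (-1.63, SE 0.239, adjusted p = 0.000250), with means of 5.58, 3.74 and 1.79 CPM in Empty, NF-YAl and NF-YAs. Its call in NF-YAl against NF-YAs (1.05, adjusted p = 0.00904) was lost in each of the 9 fits without 1 library. ZEB2 rose in NF-YAs from 0.703 to 2.26 CPM (1.69, SE 0.343, adjusted p = 0.00238), a call lost without Empty B, Empty C or NF-YAs C. TWIST2 had 0 counts in the Empty libraries, 2, 15 and 18 with NF-YAl, and 32, 20 and 40 with NF-YAs, and was called higher in both lines, although in NF-YAl 4 of the 9 fits without 1 library (each Empty library in turn, and NF-YAl B) lost the call. ZEB1, the most abundant of the group at 48.5 to 64.3 CPM on average, TWIST1 (9.05 to 11.2) and SNAI3 (3.96 to 6.85) were not called in any comparison. Without the fold limit ZEB1 passed in NF-YAl against NF-YAs, lower in NF-YAl (-0.405, SE 0.0926, adjusted p = 0.0086). In all, 1 of the 7 was higher in NF-YAl, 3 were higher and 1 lower in NF-YAs, and 1 was higher and 1 lower in NF-YAl against NF-YAs, with median log2FC of -0.30, 0.07 and -0.41.

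**Figure D3:**
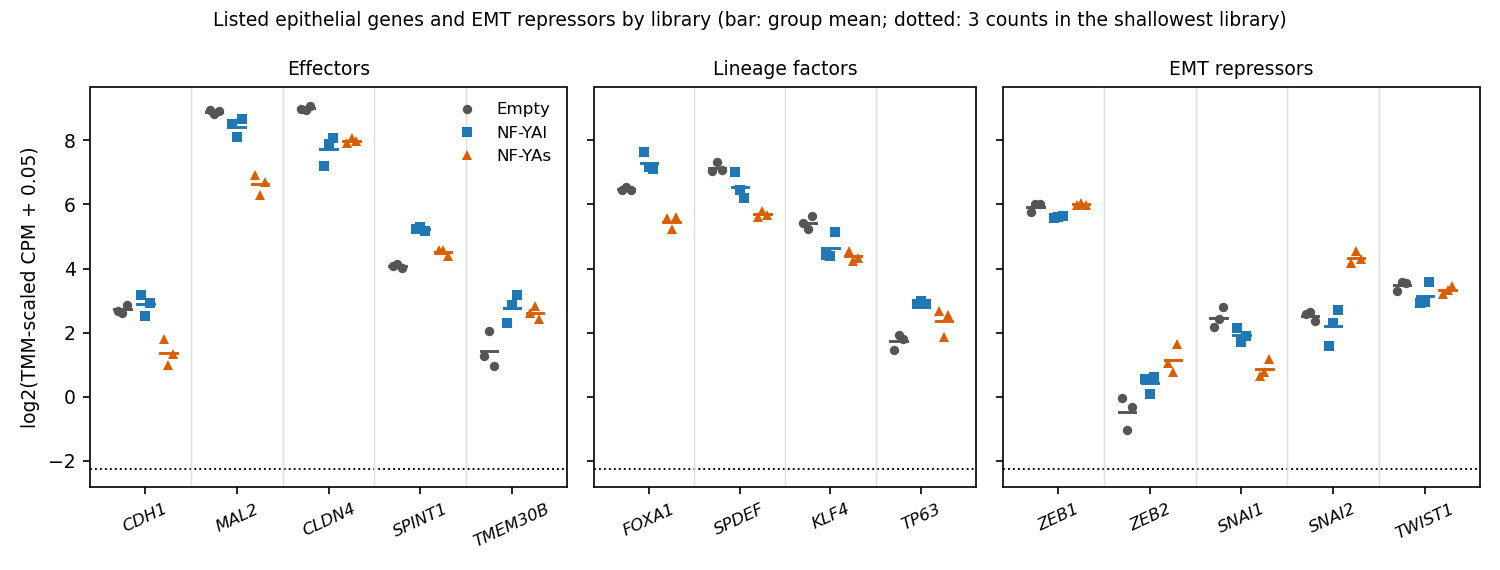
The y axis gives log2(TMM-scaled CPM + 0.05) in each library for effector genes, lineage factors and EMT repressors named by rule, with a bar at each group's mean and a dotted line at 3 counts in the shallowest library. CDH1, MAL2, FOXA1 and SPDEF are lowest in NF-YAs, and SNAI2 is highest there. The EMT repressors TWIST2 and SNAI3 are not drawn.

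Genes whose pattern over the 9 libraries was most like that of ELF3 and EHF were ranked by the root mean square difference of centred log2 CPM among 12609 genes. For ELF3 these were KRT38 (0.604), CDH3 (0.638) and GDF15 (0.651), and for EHF they were GJA5 (0.370), GDF15 (0.428) and C1orf116 (0.443). CDH3, which encodes P-cadherin, averaged 59.9 CPM in Empty MTSs, 19.4 with NF-YAl, and 6.34 with NF-YAs. GDF15, a stress cytokine on both lists, averaged 285, 142 and 37.5 CPM. The libraries share their line in this ranking, so it describes likeness between lines as much as between libraries.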

How the data were processed

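RNA was extracted from PC3 MTSs and libraries were made with the Illumina TruSeq Stranded Total RNA kit from 500 ng of RNA. Per the labels and the paper's methods, the authors aligned reads with Bowtie2 within RSEM to RefSeq transcripts of hg19 (GRCh37). They deposited expected counts (estimated reads, not normalized), TPM and, per transcript, the percent of the gene's TPM for each library. Whether counting used strand is not given in the sources used here.

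The members and gene lists were chosen with earlier results of these data known. After rounding, the expected counts of genes entered edgeR 4.0.16 under R 4.3.3 (filterByExpr, TMM, quasi-likelihood F test, 1 fit of 9 libraries, Benjamini-Hochberg adjustment over 17108 genes). The paper's thresholds were used. SEs are |log2FC| over the square root of F. List genes were named when called, not overlapping and at least 5 CPM on average in the higher group, at most 6 per list, with the 7 EMT repressors and 4 ESRP hosts in any case. The label does not say whether libraries came from separate cultures, but the paper's methods do. Within-group Pearson correlations of log2 CPM were 0.971 to 0.992 and 0 library pairs were identical. Floors cover counting error only, whereas the SEs and SDs also include variation between the libraries of a line.

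Transcript shares were tested by two-sided exact permutation with SciPy 1.17.1. The ratio of TPM used a pseudocount of 0.1, and the plots added 0.05 to CPM. Positions came from the GENCODE annotation of GRCh37, and promoter windows, placed by exact match, from RefSeq. The alternatives were DESeq2 1.42.0, RLE scaling, other filters on low counts, a 2-group fit, a replicate block, leaving out each library and a threshold of 0.05 on the adjusted p. The procedure was tested on simulated data. Figures were drawn with matplotlib 3.10.9. Some genes of the lists are not reported here and were left out of the lists' counts. Other assays of the study were not analysed here.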

Additional observations from a re-analysis of the deposited data

Results flagged for a closer look

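ELF3 and EHF were set apart because the 2 NF-YA lines differed in a direct test, in which form and line cannot be told apart. The NF-YAl minus NF-YAs difference in log2FC was 2.47 for ELF3 and 2.71 for EHF, and for both genes the 3 NF-YAl libraries were all higher than the 3 of NF-YAs. The groups of 3 libraries were too small to search for single outlying libraries.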

How the results depend on the processing

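ELF3 and EHF kept direction and call in every alternative run for the comparisons in which they were called. Members called in NF-YAl against Empty numbered 2 in place of 1 at an adjusted p under 0.05, the addition being ESRP1, and 1 to 2 when each library was left out, with ESRP1 added without NF-YAl replicate A. ESRP1 was likewise added in NF-YAs against Empty under both, giving 3 members in place of 2. In NF-YAl against NF-YAs OVOL2 was added without NF-YAl replicate A, again 3 in place of 2. ESRP1 and OVOL2 passed the filter on low counts through NF-YA libraries where they were high, so these additions cannot decide whether either gene changed. Genes called among all tested in NF-YAl against NF-YAs numbered 525 to 977 when each library was left out, against 788, with 525 without NF-YAs replicate C. Genes of the lists other than members called in NF-YAl against Empty numbered 5 to 9 over the left-out libraries, against 8, with 5 without Empty replicate A or C. Log2FC reversed sign in 3 members that were not called. ESRP2 in NF-YAl against Empty went from 0.13 to -0.030 under the replicate block, GRHL1 in NF-YAl against Empty ranged from -0.056 to 0.16 over the left-out libraries, and ESRP1 in NF-YAl against NF-YAs from -0.93 to 0.43. The causes were not tested. The replicate block moved the calls in NF-YAl against NF-YAs from 788 to 989 and the number of members called in no comparison. Same-letter libraries correlated by -0.0652 to 0.253 in their deviations from the group means, and the letters were not taken as pairs. Of the members' log2FC under the alternatives, 274 kept direction and side of the threshold, 5 reversed and 4 newly passed. Depth limits GRHL2, GRHL3, OVOL1, OVOL2 and ESRP1, which rest on few counts, and with 3 libraries per line a single library such as NF-YAl A or D can decide a value.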
